A study of Homo sapiens with 4 samples.

Results

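The RNA polymerase I and III machinery examined here comprised 49 genes of the 64252 gene IDs in the deposited count table. They were taken by name: the subunits of RNA polymerase I (Pol I) and RNA polymerase III (Pol III), including those shared with RNA polymerase II (Pol II), their initiation factors and their regulators. RNA came from J.gamma1, a subline of the leukaemic human T-cell line Jurkat in which the signalling enzyme PLCG1 is known to be missing. Cells were grown for 48 h with 10 µM FB23-2, an inhibitor of the RNA demethylase FTO, or with DMSO, the solvent, at less than 0.1%. Each group had 2 biological replicates of this 1 line, so that error estimates reflect the spread between cultures of the line and not between patients.

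Pol I transcribes the large ribosomal RNA precursor in the nucleolus, and Pol III makes transfer RNAs, the smallest ribosomal RNA and other short RNAs. Both enzymes share a pair of assembly subunits with each other and a further group of small subunits with Pol II. Their output is known to scale with growth, and MYC, nutrient signalling and the repressor MAF1 are known to control it. The data measure messenger RNA of the machinery, not the activity of either polymerase.

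Library totals were 37804516 and 33983246 counts with FB23-2 and 24615359 and 34897961 in control. Levels are given as CPM, read counts scaled to library size with TMM factors, in the order replicate 1 and replicate 2, and a log2 fold change is FB23-2 over control with its standard error (SE). A gene was called when the adjusted p of edgeR's quasi-likelihood test over all tested genes was below 0.05. All 10 T-lineage and leukaemia markers were detected, from CD2 at 2.96 to 4.73 CPM up to LCK at 421 to 602 CPM over the libraries. The B-cell gene CD79A stood at 38.9 to 44.5 CPM, while the B-cell gene MS4A1, the monocyte genes CD14 and CSF1R and the erythroid gene HBB each had at most 0.317 CPM in any library. Collagen COL1A2, a fibroblast marker, had 0.183 and 0 CPM with FB23-2 and 2.57 and 2.15 CPM in control, while COL1A1 had 4.42 and 4.47 CPM with FB23-2 and 3.98 and 3.78 CPM in control. The part of other cells in the results was not tested. PLCG1 RNA was present at 265 to 295 CPM, so its known loss in this line was not visible at the level of gene counts.

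Much of this machinery was lower with FB23-2 than in control, with the deepest falls among nucleolar Pol I factors and Pol I subunits. Of the 49 genes, all of which passed the filter on low counts, 28 were lower and 5 higher with FB23-2, and 16 did not pass. Across all 18817 tested genes, 20.3% were called lower and 21.8% higher, or 42.1% in either direction. The median log2 fold change of the machinery was -0.31, beside 0.00 over all tested genes. At least 2-fold lower were 6 of the genes, against 4.46% of all tested genes, and 0 were at least 2-fold higher, against 3.03%. The groups did not overlap in 44 of the 49 genes, 34 lower and 10 higher, beside 70.8% of all tested genes, made up of 34.5% lower and 36.3% higher. Without the 7 genes that share over 20% of their exon bases with another gene, 25 of 42 were lower and 4 higher. In bulk RNA a shift in the mix of cells and a shift within each cell cannot be told apart. A test against a 1.5-fold change instead of against 0 left 10 genes called, 9 lower and 1 higher.

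**Figure D1:**
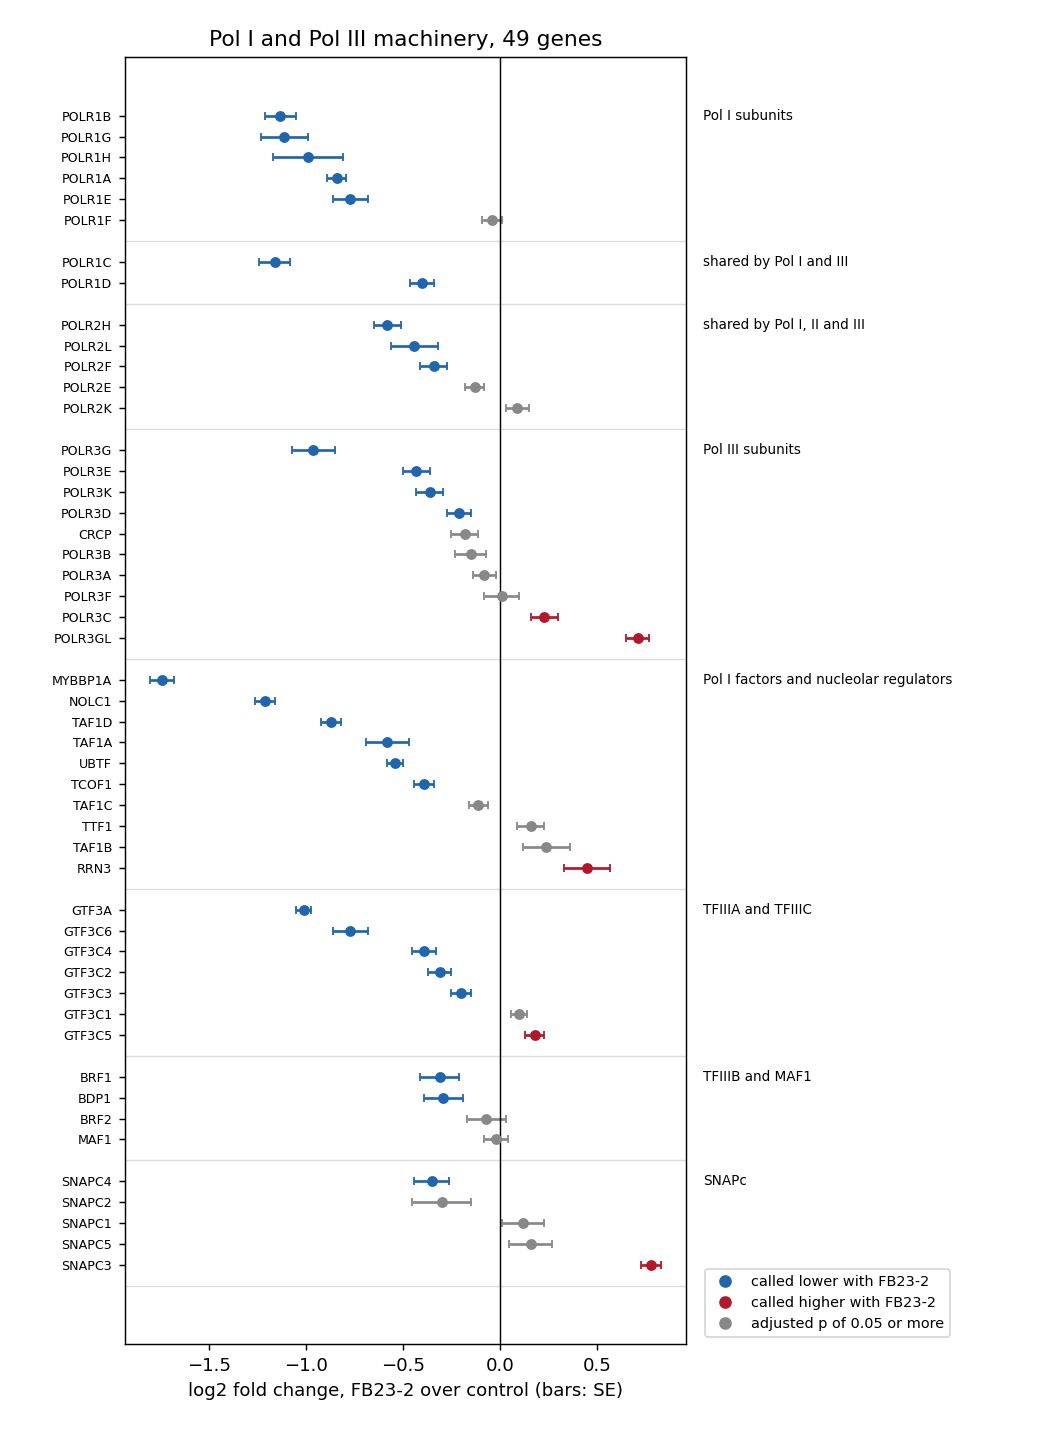
Log2 fold change of each gene, FB23-2 over control, on the horizontal axis, grouped by role; points are fitted values, bars are SE, and colour marks the call. Points reach from -1.74 for MYBBP1A to 0.78 for SNAPC3, and 37 of 49 lie below 0.

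Of the 6 subunits found in Pol I alone, 5 fell and 0 rose, with a median log2 fold change of -0.91. POLR1B, the second largest catalytic subunit, had 20.7 and 23.7 CPM with FB23-2, against 49.6 and 47.7 CPM in control. This gave a log2 fold change of -1.13 ± 0.08 (edgeR adjusted p = 8.88e-06). The gene lies at chr2:112541915-112577150 of hg38. POLR1A, the largest subunit and the other part of the active site, had 62.6 and 63.4 CPM with FB23-2 and 115 and 111 CPM in control, a log2 fold change of -0.84 ± 0.05 (edgeR adjusted p = 2.87e-06). Both catalytic subunits were lower in each treated library than in either control library.

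POLR1E and POLR1G encode the heterodimer that sits on the Pol I core and takes part in initiation. POLR1G had 7.85 and 8.22 CPM with FB23-2, against 16.6 and 17.8 CPM in control, a log2 fold change of -1.11 ± 0.12. POLR1E had a log2 fold change of -0.77 ± 0.09. POLR1H, the subunit that supports RNA cleavage, had 4.95 and 3.69 CPM with FB23-2 and 8.92 and 8.39 CPM in control, a log2 fold change of -0.99 ± 0.18. POLR1G and POLR1H had the lowest CPM of the 6. The stalk subunit POLR1F stood apart, at 76.2 and 73.2 CPM with FB23-2 and 76.7 and 76.4 CPM in control (-0.04 ± 0.05, edgeR adjusted p = 0.641), and did not pass.

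Part of the POLR1G and POLR1H reads could belong to genes on the other strand, because the strand setting of the counts is not given in the sources used here. POLR1G shares 43.5% of its exon bases with ERCC1, which stood at 62.6 and 60.9 CPM with FB23-2 and 64.8 and 62.5 CPM in control. POLR1H shares 24.5% with POLR1HASP, at 4.82 and 5.39 CPM with FB23-2 and 4.94 and 6.36 CPM in control. Neither of these neighbours passed the test, and their part in the 2 falls was not tested.

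Both subunits that Pol I and Pol III share, which form the assembly platform of each enzyme, fell. POLR1C had 21.5 and 20.2 CPM with FB23-2, against 46.9 and 46.7 CPM in control, a log2 fold change of -1.16 ± 0.08 (edgeR adjusted p = 4.23e-06). Its partner POLR1D fell to 94.5 and 85.0 CPM with FB23-2, against 122 and 116 CPM in control, with a log2 fold change of -0.40 ± 0.06. POLR1C shares 6.27% of its exon bases with XPO5 on the opposite strand, which also fell (log2 fold change -0.63).

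The 5 small subunits common to Pol I, Pol II and Pol III included 3 lower and 0 higher, with a median log2 fold change of -0.34. POLR2H fell to 44.0 and 40.7 CPM with FB23-2, against 61.3 and 64.8 CPM in control (log2 fold change -0.58 ± 0.07). POLR2F had 43.7 and 39.4 CPM with FB23-2 and 53.1 and 52.3 CPM in control (-0.34 ± 0.07). POLR2L had 29.8 and 25.8 CPM with FB23-2 and 42.5 and 34.1 CPM in control (-0.44 ± 0.12). For POLR2L the control libraries were further apart than the nearest libraries of different groups. It missed the threshold on omitting FB23-2 replicate 2 (edgeR gave an adjusted p of 0.112) or control replicate 1 (0.081), and the settings tried spanned 9.56e-04 to 1. Here and below, ranges across settings include the test against a 1.5-fold change, which asks another question than the test against 0. For POLR2L that test gave the upper end. POLR2L also shares 22.5% of its exon bases with CD151 on the opposite strand (log2 fold change -0.24). POLR2E (-0.13 ± 0.05) and POLR2K (0.09 ± 0.06) did not pass.

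**Figure D2:**
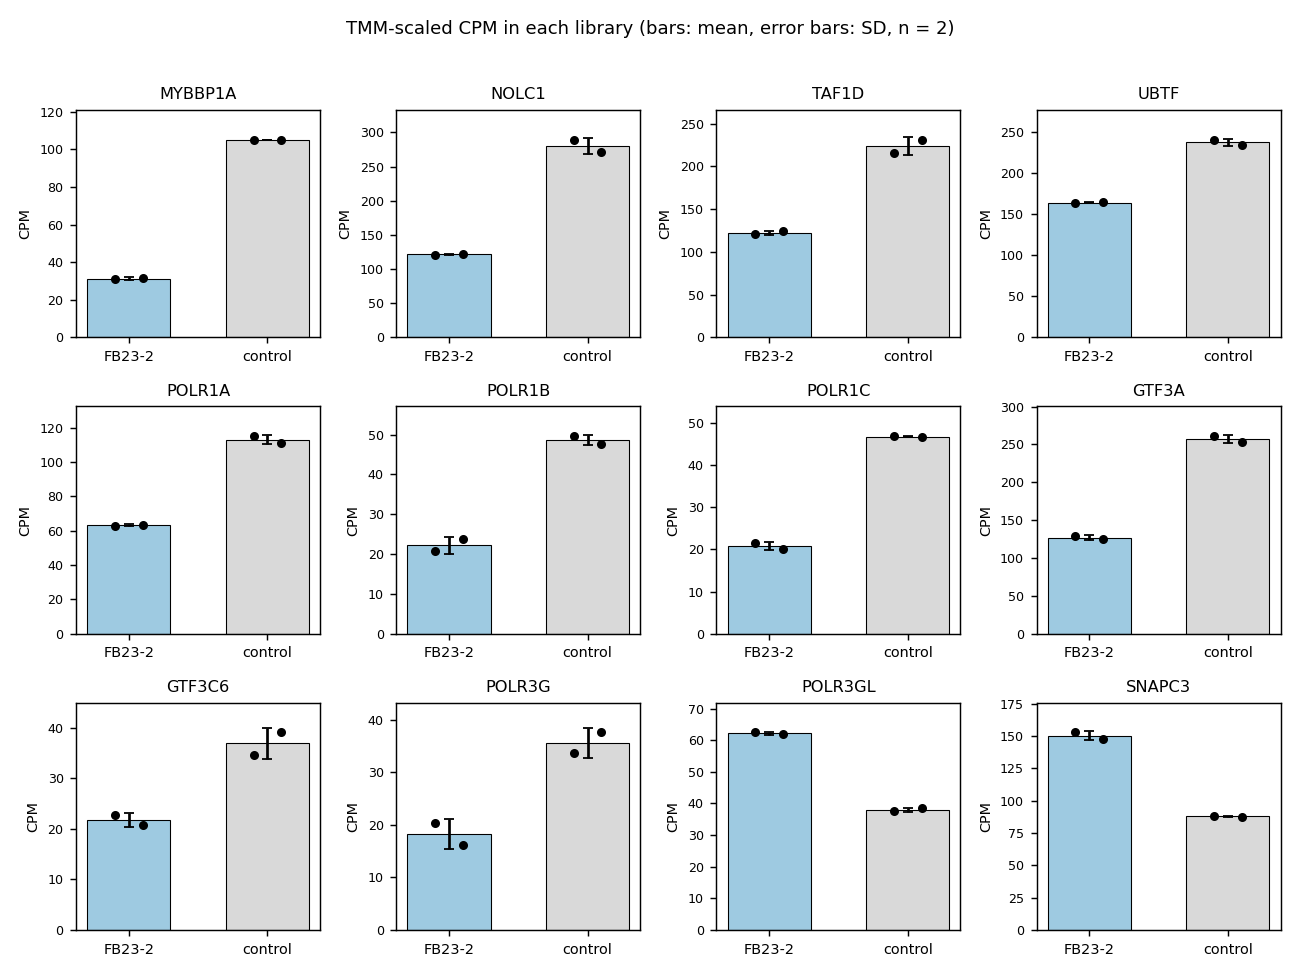
TMM-scaled CPM of 12 genes in each library, with FB23-2 at the left and control at the right of each panel; dots are libraries, bars are means and error bars are SD (n = 2). The FB23-2 libraries lie below both control libraries for MYBBP1A, NOLC1, TAF1D, UBTF, POLR1A, POLR1B, POLR1C, GTF3A, GTF3C6 and POLR3G, and above them for POLR3GL and SNAPC3.

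Among the 10 genes for subunits found in Pol III alone, 4 fell and 2 rose, and the median log2 fold change was -0.16. The catalytic pair did not pass. POLR3A had 73.4 and 80.2 CPM with FB23-2 and 78.1 and 84.0 CPM in control (log2 fold change -0.08 ± 0.06), so that the groups overlapped. POLR3B had a log2 fold change of -0.15 ± 0.08 (edgeR adjusted p = 0.16). POLR3D and POLR3E, the pair known for a part in termination, were both lower, by a log2 fold change of -0.21 ± 0.06 for POLR3D. POLR3E had 42.9 and 46.2 CPM with FB23-2, against 61.3 and 58.5 CPM in control (-0.43 ± 0.07). POLR3K, the cleavage subunit, fell as well (-0.36 ± 0.07), while the stalk subunit gene CRCP did not pass (-0.18 ± 0.07). CRCP passed without FB23-2 replicate 1 (edgeR gave an adjusted p of 0.0413), and the settings tried spanned 0.0346 to 1. POLR3D missed the threshold on omitting FB23-2 replicate 1 (edgeR gave an adjusted p of 0.0812) or control replicate 2 (0.133), and the settings tried spanned 0.00842 to 1.

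The subunits of the initiation trimer of Pol III moved in opposite directions. POLR3G and POLR3GL are alternative forms of the same subunit. POLR3G is known from stem cells and tumour cells, and POLR3GL is expressed more broadly. POLR3G had 20.3 and 16.2 CPM with FB23-2, against 33.6 and 37.6 CPM in control, a log2 fold change of -0.96 ± 0.11 (edgeR adjusted p = 1.41e-04). POLR3GL had 62.5 and 61.8 CPM with FB23-2, against 37.5 and 38.5 CPM in control, a log2 fold change of 0.71 ± 0.06 (edgeR adjusted p = 2.39e-05). Each kept its direction and its call with any 1 library left out, with edgeR adjusted p values up to 0.00472 for POLR3G and 9.39e-04 for POLR3GL. POLR3C, another subunit of the trimer, was also higher, at 48.8 and 47.3 CPM with FB23-2 and 42.5 and 39.4 CPM in control (0.23 ± 0.07). POLR3F, the remaining one, had 20.2 and 20.2 CPM with FB23-2 and 19.3 and 20.7 CPM in control (0.01 ± 0.09). The POLR3C call did not survive the omission of FB23-2 replicate 1 (edgeR gave an adjusted p of 0.135), FB23-2 replicate 2 (0.0511) or control replicate 2 (0.174), and the settings tried spanned 0.00837 to 1.

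Per kilobase of merged exons, POLR3GL was the more abundant form in every library. The ratio of POLR3G to POLR3GL on that scale was 0.145 and 0.117 with FB23-2, against 0.401 and 0.437 in control. The log2 ratio differed by -1.68, and the groups did not overlap. An exact two-sided permutation test over the 4 libraries gave p = 0.333, the smallest that 2 against 2 allows. POLR3G lies at chr5:90471748-90514553 and POLR3GL at chr1:145964702-145978848. POLR3GL shares 21.2% of its exon bases with another annotated gene on the same strand, AC243547.3, whose counts were not analysed here. POLR3G shares 6.47% with MBLAC2 on the opposite strand, which was also called lower (log2 fold change -0.26). MBLAC2 had 24.6 and 22 CPM with FB23-2 and 28.1 and 27.9 CPM in control. The part of reads from these neighbours in the ratio was not tested.

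**Figure D3:**
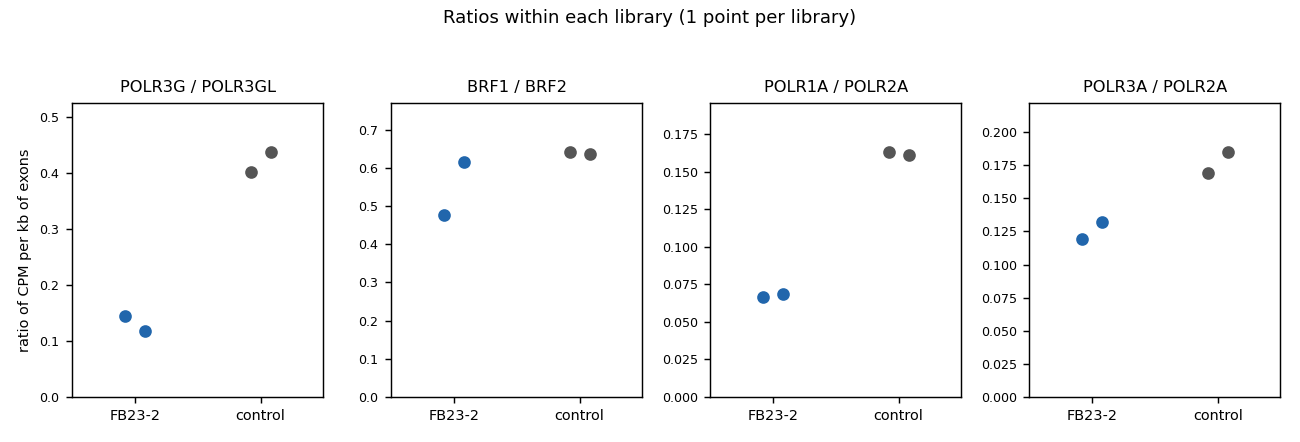
Ratio of CPM per kilobase of merged exons between 2 genes within each library, with FB23-2 at the left and control at the right of each panel; each point is 1 library. POLR3G to POLR3GL was 0.145 and 0.117 with FB23-2 against 0.401 and 0.437 in control, and POLR1A to POLR2A was 0.0667 and 0.0687 against 0.163 and 0.161.

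The largest subunits of the 3 polymerases gave a further comparison within each library. The ratio of POLR1A to POLR2A, per kilobase, was 0.0667 and 0.0687 with FB23-2 and 0.163 and 0.161 in control. That of POLR3A to POLR2A was 0.119 and 0.132 with FB23-2 and 0.169 and 0.185 in control. POLR2A itself rose (log2 fold change 0.42 ± 0.04), which entered both ratios. The groups did not overlap for either ratio, and the exact permutation p was 0.333 for each, the smallest possible.

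Among the 10 Pol I factors and nucleolar regulators, 6 fell and 1 rose, with a median log2 fold change of -0.46. MYBBP1A, a nucleolar protein known to bind MYB and to act in ribosomal RNA transcription and processing, showed the deepest fall of the 49 genes. It had 30.9 and 31.8 CPM with FB23-2, against 105 and 105 CPM in control, a log2 fold change of -1.74 ± 0.06 (edgeR adjusted p = 1.83e-07). Only 1.60% of tested genes had a log2 fold change that low or lower, and the gene lies at chr17:4538897-4555631. NOLC1, a nucleolar phosphoprotein and chaperone of small nucleolar particles, had 121 and 122 CPM with FB23-2 and 289 and 272 CPM in control (-1.21 ± 0.05, edgeR adjusted p = 3.47e-07). TCOF1, which encodes the related protein treacle and is mutated with POLR1C and POLR1D in Treacher Collins syndrome, fell as well (-0.39 ± 0.05).

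UBTF binds along ribosomal DNA and keeps it open for Pol I. It had 163 and 164 CPM with FB23-2, against 240 and 234 CPM in control (-0.54 ± 0.04, edgeR adjusted p = 9.73e-06). The promoter selectivity factor that recruits Pol I is built of TATA-binding protein and the subunits TAF1A, TAF1B, TAF1C and TAF1D, and these did not move together. TAF1D had 121 and 124 CPM with FB23-2, against 216 and 231 CPM in control (-0.87 ± 0.05, edgeR adjusted p = 1.84e-06). TAF1A fell as well (-0.58 ± 0.11), while TAF1B (0.24 ± 0.12) and TAF1C (-0.11 ± 0.05) did not pass. TAF1D also hosts small nucleolar RNAs in its introns. The terminator-binding factor gene TTF1 did not pass (0.16 ± 0.07).

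RRN3 links Pol I to the promoter factor and is a known point of growth control. It was the member of this class that rose, to 77.7 and 61.2 CPM with FB23-2, against 49.1 and 52.2 CPM in control (0.45 ± 0.12, edgeR adjusted p = 0.0297). The FB23-2 libraries differed from each other by more than the lower of them differed from control. The log2 fold change of RRN3 was 0.25 without FB23-2 replicate 1 and 0.62 without FB23-2 replicate 2. The call did not survive the omission of control replicate 1 (edgeR gave an adjusted p of 0.137) or control replicate 2 (0.0894), and the settings tried spanned 4.44e-04 to 1. RRN3 has known pseudogenes that carried counts of their own. RRN3P1 had 530 and 537 counts with FB23-2 and 275 and 418 in control, and RRN3P3 had 281 and 284 with FB23-2 and 314 and 437 in control. How reads were divided among these copies is not given in the sources used here, so the level of RRN3 is uncertain.

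TFIIIA and TFIIIC recognise the internal promoters of Pol III genes. Of their 7 genes, 5 fell and 1 rose, with a median log2 fold change of -0.31. GTF3A, which encodes TFIIIA, the factor specific to the smallest ribosomal RNA, had 129 and 125 CPM with FB23-2, against 261 and 253 CPM in control. This was a log2 fold change of -1.01 ± 0.04 (edgeR adjusted p = 6.05e-07). The gene lies at chr13:27424544-27435823. GTF3C6, the smallest TFIIIC subunit, had 22.7 and 20.8 CPM with FB23-2 and 34.7 and 39.1 CPM in control (-0.77 ± 0.09). GTF3C4 had 68.5 and 73.0 CPM with FB23-2 and 89.1 and 96.3 CPM in control (-0.39 ± 0.06). In these 3 genes both treated libraries were below both controls.

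The pseudogene GTF3C6P2 took 18 and 18 counts with FB23-2 and 29 and 35 in control. Among the other TFIIIC subunits changes were smaller. GTF3C2 (-0.31 ± 0.06) and GTF3C3 (-0.20 ± 0.05) were lower, and the call for GTF3C3 did not survive the omission of control replicate 2 (edgeR adjusted p = 0.106, 0.00453 to 1 across settings). GTF3C1, the largest subunit, which contacts the promoter, did not pass (0.10 ± 0.04). GTF3C5 passed in the opposite direction, at 82.8 and 82.6 CPM with FB23-2 and 72.5 and 73.2 CPM in control (0.18 ± 0.05, edgeR adjusted p = 0.0181). It did not pass with any 1 of the 4 libraries left out, with edgeR adjusted p values of 0.0918 and 0.0544 without FB23-2 replicate 1 and 2 and 0.121 and 0.0841 without control replicate 1 and 2, and the settings tried spanned 0.00597 to 1.

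TFIIIB places Pol III at the start site, and its BRF subunit differs between promoter types. Of the 4 genes of TFIIIB and MAF1, 2 were lower and 0 higher. BRF1, which serves transfer RNA genes, had 36.8 and 46.0 CPM with FB23-2 and 51.8 and 50.6 CPM in control (-0.31 ± 0.10, edgeR adjusted p = 0.0386). The log2 fold change of BRF1 was -0.17 without FB23-2 replicate 1 and -0.47 without FB23-2 replicate 2. BRF2, which serves genes with upstream promoters, had 16.2 and 15.7 CPM with FB23-2 and 16.9 and 16.6 CPM in control (-0.07 ± 0.10, edgeR adjusted p = 0.601). BRF2 shares 59.0% of its exon bases with ADGRA2 on the opposite strand, which had 39.9 and 44.5 CPM with FB23-2 and 46.9 and 47.4 CPM in control, so the level of BRF2 is uncertain. The ratio of BRF1 to BRF2 per kilobase was 0.476 and 0.616 with FB23-2 and 0.642 and 0.637 in control, a difference of -0.24 on the log2 scale with an exact permutation p of 0.333.

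BDP1, the remaining TFIIIB-specific subunit, had 17.1 and 18.9 CPM with FB23-2 and 21.2 and 22.6 CPM in control (-0.29 ± 0.10, edgeR adjusted p = 0.04). Neither BRF1 nor BDP1 held its call without FB23-2 replicate 1 (edgeR adjusted p = 0.13 for BRF1 and 0.161 for BDP1), control replicate 1 (0.126 and 0.0677) or control replicate 2 (0.129 and 0.232). Over all alternatives the adjusted p ran from 0.0033 to 1 for BRF1 and from 0.0238 to 1 for BDP1. MAF1, the repressor that binds Pol III when nutrients are short, had 66.4 and 62.6 CPM with FB23-2 and 66.4 and 64.4 CPM in control (-0.02 ± 0.06, edgeR adjusted p = 0.844), and its groups overlapped.

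SNAPc binds the upstream element of small nuclear RNA genes, which Pol II or Pol III then reads. Of its 5 genes, 1 rose, 1 fell and 3 did not pass. SNAPC3, a DNA-contacting subunit, rose to 153 and 148 CPM with FB23-2, against 88.3 and 87.7 CPM in control, a log2 fold change of 0.78 ± 0.05 (edgeR adjusted p = 2.83e-06). This was the largest rise among the 49 genes, at chr9:15422704-15465953, and it also passed the test against 1.5-fold (edgeR adjusted p = 0.00692, 2.14e-27 to 0.00692 across settings). SNAPC3 shares 2.09% of its exon bases with PSIP1 on the opposite strand, which rose too, at 424 and 430 CPM with FB23-2 and 286 and 296 CPM in control (log2 fold change 0.55). The part of those reads in the rise of SNAPC3 was not tested. SNAPC4, the largest subunit and main DNA-binding part, fell to 19.5 and 18.9 CPM with FB23-2, against 24.5 and 24.5 CPM in control (-0.35 ± 0.09). The SNAPC4 call did not survive the omission of control replicate 2 (edgeR adjusted p = 0.064, 0.00563 to 1 across settings). SNAPC1 (0.12 ± 0.11), SNAPC2 (-0.30 ± 0.15) and SNAPC5 (0.16 ± 0.11) did not pass. SNAPC1 shares 21.3% and SNAPC5 23.2% of exon bases with another annotated gene on the same strand. SNAPC2 passed without FB23-2 replicate 1, where its log2 fold change was -0.55 (edgeR adjusted p = 0.0228, 0.0228 to 1 across settings).

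Summed CPM show the reads that each class took, in which long transcripts weigh more. The 6 Pol I subunits together took 195 and 194 CPM with FB23-2, against 306 and 298 CPM in control. The 10 Pol I factors and regulators took 773 and 761 CPM with FB23-2, against 1189 and 1187 CPM in control. For the 7 genes of TFIIIA and TFIIIC the sums were 684 and 678 CPM with FB23-2, against 850 and 859 CPM in control. Pol III subunits had sums of 429 and 433 CPM with FB23-2 against 461 and 465 CPM in control. For SNAPc the sum ran the other way, with 233 and 227 CPM with FB23-2 and 174 and 172 CPM in control, of which SNAPC3 made up 153 and 148 CPM with FB23-2 and 88.3 and 87.7 CPM in control. Per kilobase of merged exons, the Pol III subunits summed to 122 and 120 CPM per kb with FB23-2 and 120 and 120 in control, which was no fall. Pol I subunits had 39.5 and 38.6 against 58.4 and 56.4, and Pol I factors and regulators 140 and 137 against 212 and 211. TFIIIA and TFIIIC had 139 and 136 against 196 and 200, and SNAPc 52.2 and 50.6 against 44.4 and 43.3. Whether the classes differ from each other in their response was not tested.

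Levels per kilobase of merged exons allow genes to be ranked. With FB23-2 the highest means were those of POLR2K (52.7 CPM per kb), GTF3A (42.3) and POLR3GL (34.6). In control the order was GTF3A (85.5 CPM per kb), NOLC1 (70.6) and POLR2K (49.3). The lowest means with FB23-2 were those of POLR1H (1.18 CPM per kb) and BDP1 (1.45), and in control those of BDP1 (1.76) and POLR1H (2.36). Counts of the 49 genes ranged from 128 to 9362 per library, and the SE of the log2 fold change from 0.04 to 0.18.

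Promoter windows were examined because many of these genes moved together and because the E-box CACGTG, which reads the same on both strands, is the element that MYC with MAX and several related factors are known to bind. RefSeq windows (GRCh38.p14) from 250 bases before to 50 after the start were at hand for 39 of the 49 genes. CACGTG was present in 8 of these (20.5%), beside 12.5% of the 11700 tested genes that had a window and 8.77% of all 27305 genes with a window. It was in 6 of 22 genes called lower (27.3%) and in 2 of the 17 others (11.8%). The share among all tested genes called lower is not given here, so this split has no background beside it. The 8 genes were MYBBP1A, POLR1G, GTF3C2, GTF3C4, GTF3C6, POLR3E, POLR3C and POLR3A, and of these POLR3C was higher and POLR3A did not pass. With the 250 bases before the start alone, 6 of 39 held the motif (15.4%), beside 11.1% of tested genes, and the split was 4 of 22 genes called lower (18.2%) and 2 of the 17 others (11.8%).

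The motif is shown for 4 genes that fell, POLR1G, GTF3C4, GTF3C6 and MYBBP1A, and for POLR3A, which holds it and did not pass. For GTF3C4 and POLR3A the 250 bases before the RefSeq start are given. For the other genes, where GENCODE 29 places the motif inside the gene, the site with 10 bases on each side is given. Sequences run 5′ to 3′ on the strand of the gene, and capitals mark CACGTG.
POLR1G, chr19:45406622-45406647, plus strand: cctttggatcCACGTGgtctgcaacc
GTF3C4, chr9:132669785-132670034, plus strand: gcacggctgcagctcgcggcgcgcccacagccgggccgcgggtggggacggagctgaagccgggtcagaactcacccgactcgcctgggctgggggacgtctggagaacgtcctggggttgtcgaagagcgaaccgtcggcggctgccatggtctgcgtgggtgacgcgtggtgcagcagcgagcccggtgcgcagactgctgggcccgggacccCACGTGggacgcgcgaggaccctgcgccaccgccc
GTF3C6, chr6:110958554-110958579, plus strand: ggcgagtctcCACGTGggtaccggcg
POLR3A, chr10:78029516-78029765, minus strand: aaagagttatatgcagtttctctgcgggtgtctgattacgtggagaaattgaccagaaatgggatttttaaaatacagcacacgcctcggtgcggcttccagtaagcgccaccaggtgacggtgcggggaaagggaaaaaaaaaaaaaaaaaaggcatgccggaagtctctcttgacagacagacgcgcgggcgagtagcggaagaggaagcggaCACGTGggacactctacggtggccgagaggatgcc
MYBBP1A, chr17:4555342-4555367, minus strand: ggccggagcaCACGTGtttcgtgttt
Relative to the RefSeq start, the motif begins 12 bases upstream in POLR1G, 35 in both GTF3C4 and POLR3A and 142 in GTF3C6, and at base 28 of the transcript in MYBBP1A. GENCODE 29, used for the gene coordinates here, has other starts for 4 of these. By its outermost start the motif begins 423 bases inside POLR1G, 274 inside MYBBP1A and 4 inside GTF3C6, and 5 bases upstream of POLR3A. For GTF3C4 both annotations give the same start. The log2 fold changes of these genes were -1.11 for POLR1G, -0.39 for GTF3C4, -0.77 for GTF3C6, -0.08 for POLR3A and -1.74 for MYBBP1A. Among the genes not shown, by the outermost GENCODE 29 start the motif begins 167 bases inside GTF3C2, 33 inside POLR3E and 84 upstream of POLR3C. A match of these letters is a description of the window, and binding was not measured.

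Other genes of the pathway were read from 5 lists. Their counts stand beside 20.3% called lower and 21.8% called higher among all tested genes. The 8 Pol II subunits outside the shared set had a median log2 fold change of 0.00, with 3 higher and 1 lower. POLR2A had 580 and 571 CPM with FB23-2 and 434 and 426 CPM in control (0.42 ± 0.04, edgeR adjusted p = 1.97e-05), and POLR2B, the other catalytic subunit, had a log2 fold change of -0.22 ± 0.04. POLR2M (0.26 ± 0.06) missed the threshold on omitting FB23-2 replicate 1 (edgeR adjusted p = 0.0574, 0.00165 to 1 across settings). POLR2D (0.15 ± 0.05) did not pass with any 1 library left out, with edgeR adjusted p values of 0.0895 to 0.15, and the settings tried spanned 0.00794 to 1.

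Factors that assemble the polymerases before they enter the nucleus included 6 lower and 1 higher of 13, with a median log2 fold change of -0.10. The ATPase pair RUVBL1 (-0.76 ± 0.06) and RUVBL2 (-0.55 ± 0.05) and the co-chaperone component TELO2 (-0.52 ± 0.06) fell. RPAP3 was the one that rose (0.17 ± 0.05). It did not pass with any 1 library left out, with edgeR adjusted p values of 0.0565 to 0.16, and the settings tried spanned 0.00741 to 1.

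Nucleolar proteins and regulators of ribosomal DNA chromatin included 6 lower and 3 higher of 14, with a median log2 fold change of -0.12. LYAR, a nucleolar regulator of growth, had 45.0 and 44.8 CPM with FB23-2 and 92.0 and 87.5 CPM in control (edgeR adjusted p = 2.37e-06). The histone chaperone NPM1 (-1.09 ± 0.04), nucleolin NCL (-0.96 ± 0.04), the RNA helicase DDX21 (-0.96 ± 0.04) and the methyltransferase FBL (-0.92 ± 0.06) fell with it. The rises were those of PNRC1 (0.37 ± 0.08), the histone demethylase PHF8 (0.19 ± 0.05) and BAZ2A, a subunit of a complex that silences ribosomal DNA (0.15 ± 0.05). BAZ2A did not pass with any 1 library left out (edgeR adjusted p 0.0538 to 0.191, 0.00741 to 1 across settings). PHF8 missed the threshold on omitting FB23-2 replicate 1 (edgeR gave an adjusted p of 0.148), control replicate 1 (0.171) or control replicate 2 (0.0654), and the settings tried spanned 0.00741 to 1.

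Cofactors of Pol III and enzymes that process its transcripts included 9 lower and 4 higher of 19, with a median log2 fold change of -0.17. TRMT61A, the catalytic subunit of a transfer RNA methyltransferase, had 6.12 and 6.86 CPM with FB23-2, against 16.7 and 19.3 CPM in control (-1.48 ± 0.14, edgeR adjusted p = 2.89e-05). RPP40, a protein of ribonuclease P, fell as well (-0.96 ± 0.12). HEXIM1, which with a Pol III transcript holds the elongation kinase inactive, rose to 182 and 177 CPM with FB23-2, against 100 and 105 CPM in control (0.81 ± 0.05). MEPCE, the capping enzyme of that transcript, was higher (0.24 ± 0.05). CSNK2B (0.59 ± 0.16) missed the threshold on omitting FB23-2 replicate 2 (edgeR gave an adjusted p of 0.0777) or control replicate 2 (0.135), and the settings tried spanned 0.00473 to 0.982. TBP, part of both TFIIIB and the Pol I promoter factor, had a log2 fold change of 0.00 ± 0.08.

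Of the 57 tested genes of these lists, 22 were lower and 11 higher, beside 20.3% lower and 21.8% higher among all tested genes. With upper quartile scaling 25 of the 57 were lower and 6 higher. Transcripts made by Pol III were hardly captured. Of 11 with a row, 6 had 0 counts in every library, 2 more had too few to test, and of the 3 tested 0 passed, although 2 had an unadjusted edgeR p below 0.05 and DESeq2 and limma-voom each called 1. A replicate block called 2, and leaving out FB23-2 replicate 2 or control replicate 2 called 1 each, all of them lower. RN7SL1, the RNA of the signal recognition particle, had 8.43 and 13.9 CPM with FB23-2 and 17.8 and 16.8 CPM in control (-0.64 ± 0.22, edgeR adjusted p = 0.0673, 0.00127 to 0.883 across settings). These counts do not measure the output of Pol III.

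**Figure D4:**
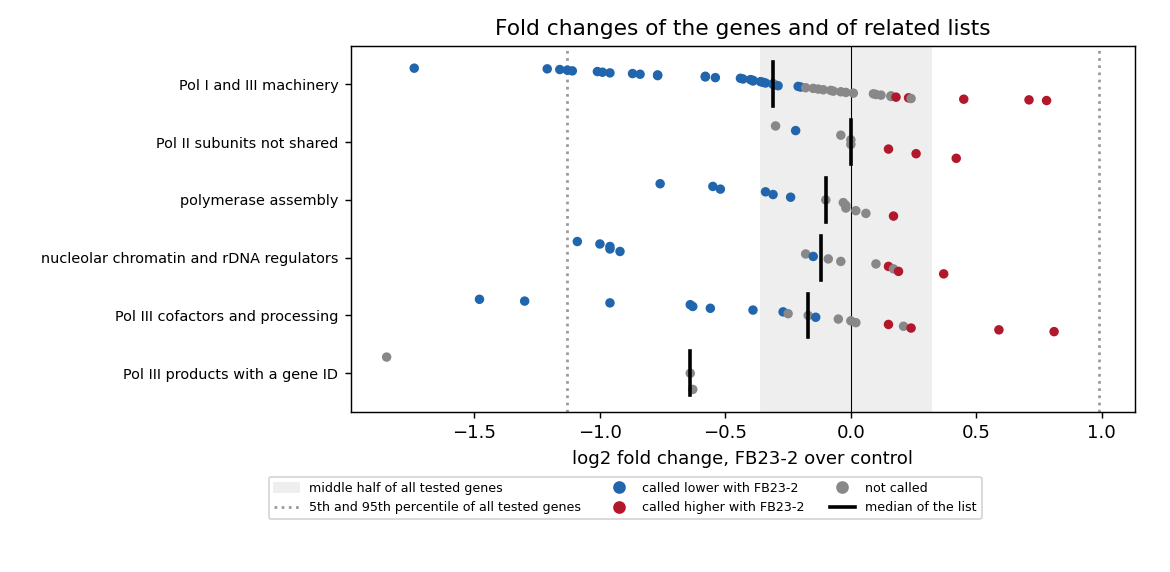
Log2 fold change, FB23-2 over control, of each tested gene of the Pol I and III machinery and of 5 related lists; dots are genes, coloured by call, black bars are list medians, and the grey band and dotted lines mark quartiles and the 5th and 95th percentiles of all tested genes. The machinery's median lies at -0.31 and that of the unshared Pol II subunits at 0.00, with quartiles of all genes at -0.36 and 0.32.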

How the data were processed

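The authors deposited raw integer read counts for each gene ID, with the 4 libraries side by side in 1 table. The submitters' processing notes name HISAT2 2.2.0, StringTie and hg38. For the counting step, the annotation release and the strand setting, the sources used here give nothing. Per the labels' protocols, total RNA from independent cultures was made into libraries with an Illumina TruSeq kit. Gene names came from a symbol list, and coordinates, merged exon lengths and overlaps from GENCODE 29 on the same build.

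Genes were kept by filterByExpr (minimum count 10), which left 18817 with at least 99.9% of each library's counts. Libraries were scaled by TMM and compared with the quasi-likelihood test of edgeR 4.0.16 in R 4.3.3 (robust dispersions), with Benjamini-Hochberg adjustment over all tested genes. The SE is the absolute log2 fold change over the square root of F. Alternatives used DESeq2 1.42.0, limma 3.58.1, other scalings and filters, a replicate block and each library left out. The test against a 1.5-fold change was counted among them, and ranges across settings include it. Replicate libraries differed by 6.69 and 7.48 chi-square units per degree of freedom, so none was a copy. A count of 3 corresponds to 0.0785 to 0.125 CPM, and covers counting error only. Members and lists were chosen with earlier results of these data known. Values in each library are given for the 3 largest called changes of each role class, for calls against the majority and for alternative subunits. Of each related list up to 3 called genes per direction are named. POLR1A, UBTF, POLR3A, POLR3F, POLR1F, MAF1, TBP, DDX21, FBL, RN7SL1 and the genes that overlap a member were named after their values were seen. Some items of these lists are not reported here.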

Additional observations from a re-analysis of the deposited data

How the results depend on the processing

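Of the 33 called genes, 24 kept their direction and call under all 12 alternatives besides the test against 1.5-fold. That test left 10 called in all, 9 lower and 1 higher, and 10 of the related genes, 9 lower and 1 higher. With 1 library left out, 25 to 30 of the genes were called, 23 to 27 lower and 2 to 3 higher, against 28 and 5 with all libraries. For the related lists these ranges were 24 to 28 in all, 18 to 21 lower and 5 to 8 higher. Upper quartile scaling and the omission of the filter each left 6 related genes higher, against 11. The median log2 fold change of the genes was -0.26 with scaling by library size alone, -0.35 with upper quartile scaling and -0.37 to -0.27 with 1 library left out. The log2 ratio of POLR3G to POLR3GL differed by -1.83 to -1.53 with 1 library left out. BDP1, BRF1 and POLR3D did not pass with scaling by library size alone, and BDP1, POLR3C and POLR3D did not pass with DESeq2. The cause of these changes was not tested.

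The replicate numbers do not pair the libraries by any statement in the labels, and same-numbered libraries deviated from their group means with a correlation of 0.0623. A replicate block gave 35 called genes, 30 lower and 5 higher, and 38 related genes, 26 lower and 12 higher. With 2 libraries a group, small changes such as those of GTF3C5, POLR3C, BRF1 and BDP1 are at the limit of what these data can show.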
